A study of Mus musculus with 8 samples.

Results

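The Fc receptor genes Fcgr1, Fcgr3, Fcgr4, Fcer1g, Fcgr2b and Fcgrt were followed in RNAseq data of spleen neutrophils. They were chosen by symbol, matched to the Ensembl identifiers of the count files, and make up 6 of 55414 genes in those files. The study asked how loss of the chemokine receptor Cxcr2 affects neutrophils. There were 4 WT and 4 Cxcr2-/- mice with 1 library per mouse, all of the FVB strain, 10 weeks old and kept in SOPF housing. The knockout allele had been backcrossed to FVB, and was not restricted to neutrophils. In both groups cells positive for CD11b were first enriched with a selection kit, and CD45+ CD11b+ Ly6G+ F4/80- cells were then sorted.

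Receptors for the Fc part of IgG let neutrophils take up antibody-coated particles and respond to immune complexes. Activating receptors have a ligand-binding α chain (Fcgr1, Fcgr3 or Fcgr4 in the mouse) that signals through the common γ chain, Fcer1g, whose cytoplasmic tail carries an immunoreceptor tyrosine-based activation motif (ITAM). The inhibitory receptor Fcgr2b binds IgG too, but its own tail carries an inhibitory motif (ITIM) that recruits phosphatases, and the balance of activating and inhibitory receptors is known to set the threshold of the response. Fcgrt encodes the heavy chain of the neonatal Fc receptor, which binds IgG inside endosomes and protects it from degradation.

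The sequences of these motifs show the division of labour within the family. The coding stretches below are from GENCODE M21 transcripts on GRCm38, both on the minus strand. The Fcer1g stretch joins chr1:171230067-171230081 and chr1:171229880-171229927 across an intron, the Fcgr2b stretch lies at chr1:170961062-170961097, and capitals mark the codons of the motif tyrosines.
Fcer1g ITAM: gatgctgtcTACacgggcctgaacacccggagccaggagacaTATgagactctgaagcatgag
Fcgr2b ITIM: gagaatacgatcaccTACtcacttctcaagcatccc
Of the 6 genes, only Fcer1g encoded the ITAM pattern in the translated reference transcript, and the 3 activating α chains did not.

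The counts assigned to genes ranged from 34220182 to 46233555 per library in WT and from 37549648 to 43789253 in Cxcr2-/-. The targeted gene was measured at 1719 to 2252 CPM (the counts of a gene scaled to a common library size by TMM) in WT and at 12.9 to 20.7 CPM in Cxcr2-/-, as the labels state. The 8 neutrophil markers summed to 31078 to 44810 CPM in WT and 67647 to 81577 CPM in Cxcr2-/-, so the labelled cell type was present in every library. Of these markers 6 were higher in Cxcr2-/- and 1 was lower, Csf3r, at 3164 to 3513 CPM against 6504 to 7470 CPM in WT. Monocyte and macrophage markers summed to 709 to 829 CPM in WT and 853 to 984 CPM in Cxcr2-/-, and B cell markers to 76.1 to 163 CPM and 32 to 76.1 CPM. The higher monocyte and macrophage sum in Cxcr2-/- came from Ly6c2, at 194 to 270 CPM in WT and 573 to 663 CPM in Cxcr2-/-. Csf1r of the same list went the other way, at 403 to 499 and 190 to 269 CPM. Of the 12 genes in that list, 3 were higher and 2 lower. Cxcr2-/- replicates 3 and 4 stood apart in the monocyte gene Ccr2, at 34.4 and 45.7 CPM against at most 9.06 CPM in the other 6 libraries. They also stood apart in the summed erythroid markers, at 12.2 and 12.7 CPM against 1.74 to 4.81 CPM, and in the eosinophil gene Prg2, at 11.0 and 16.3 CPM against 0.116 to 5.06 CPM. The 6 eosinophil markers together summed to 55.6 and 66.2 CPM there, within the WT range of 49.4 to 70.7 CPM. Of that list 2 genes were higher in Cxcr2-/- and 2 lower. The lower ones were Siglecf, at 28.7 to 35.2 against 37.7 to 55.4 CPM, and Ccr3, at 2.78 to 7.44 against 9.01 to 13.2 CPM. The share of read pairs that met no gene was 31.4 to 41.5% in WT and 26.7 to 31.9% in Cxcr2-/-.

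In the spleen neutrophils of both genotypes, Fcer1g, Fcgr3, Fcgr4 and Fcgr2b were abundant while Fcgr1 and Fcgrt were close to the detection limit. Loss of Cxcr2 went with a higher level of the γ chain Fcer1g, by 1.30-fold, and of the high-affinity receptor Fcgr1, by 3.30-fold from a very low level. The main α chains Fcgr3 and Fcgr4, the inhibitory Fcgr2b and Fcgrt did not pass the test. All 6 genes passed the filter on low counts. In edgeR's quasi-likelihood test, adjusted over the 16778 genes tested, 2 of 6 were higher and 0 lower, against a background of 44.7% of all tested genes called in either direction, 23.7% higher and 21% lower. The lower count was also 0 at an unadjusted p under 0.05 and with DESeq2. Without Cxcr2-/- replicates 3 and 4, which stood apart in the marker genes named above, 0 of 6 were higher and 1 (Fcgrt) was lower. Over all genes, that fit called 3548 higher and 3617 lower, against 3969 and 3526 in the fit of all 8 libraries. It filtered genes anew, and its number of genes tested is not given here. The median log2 fold change of the 6 genes was 0.21, and that of all genes tested was 0.01. With a change of at least 1.5-fold also required, 1 of 6 passed (Fcgr1), against a background of 31.3%. The CPM of the groups did not overlap for 1 of 6 (Fcer1g), against a background of 41.6% in either direction, 22.5% higher and 19.1% lower. In these bulk libraries, fewer cells of a type and less RNA per cell cannot be told apart.

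**Figure D1:**
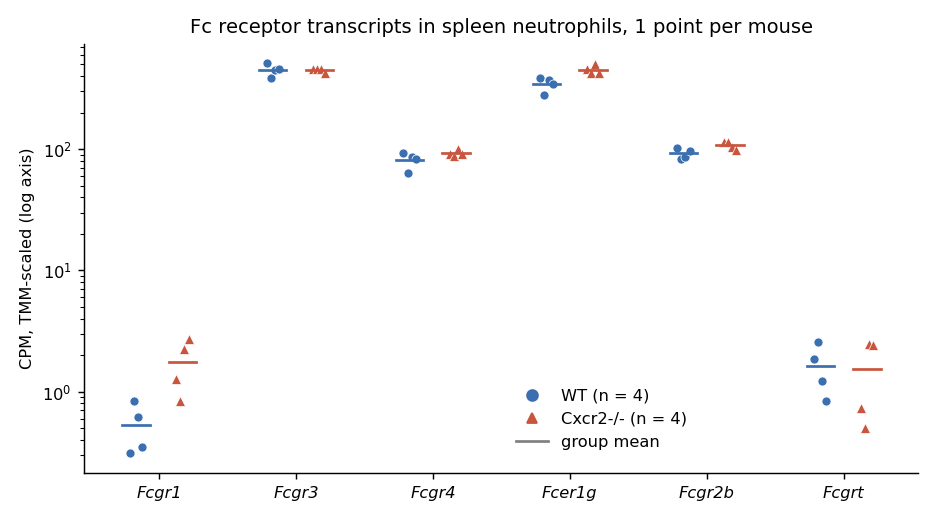
CPM of the 6 Fc receptor genes on a log axis, 1 point per mouse, with circles for 4 WT and triangles for 4 Cxcr2-/- libraries and a line at each group mean. Fcgr3 and Fcer1g lie between 281 and 509 CPM, Fcgr4 and Fcgr2b between 64.1 and 116 CPM, and Fcgr1 and Fcgrt between 0.310 and 2.72 CPM, and Fcer1g is the gene whose groups do not overlap.

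Levels were compared between genes only per kilobase of exon. Fcer1g was the highest, at 397 ± 54.3 CPM per kb in WT and 518 ± 42.7 CPM per kb in Cxcr2-/- (SD, n = 4 each). Fcgr3 followed at 260 ± 29.6 and 261 ± 9.36 CPM per kb, then Fcgr4 at 64.9 ± 9.84 and 73.9 ± 4.45 CPM per kb, and Fcgr2b at 16 ± 1.51 and 18.7 ± 1.40 CPM per kb. This order of the 4 abundant genes was the same in all 8 libraries. Fcgrt, at 0.770 and 0.732 CPM per kb, and Fcgr1, at 0.204 and 0.681 CPM per kb, were last, and their order was not fixed: Fcgrt was above Fcgr1 in 6 libraries and below it in Cxcr2-/- replicates 1 and 2. Of the summed α chain signal per kb, Fcgr3 made up 79.0 to 81.2% in WT and 76.6 to 79.0% in Cxcr2-/-. Fcgr4 made up 18.7 to 20.9% and 20.9 to 23.2%, and Fcgr1 less than the rest by far, at 0.0325 to 0.120% and 0.0954 to 0.329%.

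Fcer1g (chr1:171229572-171234365, GRCm38, minus strand), the ITAM-bearing γ chain, was measured at 388, 281, 374 and 346 CPM in WT replicates 1 to 4. In Cxcr2-/- replicates 1 to 4 it was measured at 459, 424, 503 and 424 CPM. Every Cxcr2-/- library was above every WT library, with WT replicate 2 the lowest of all. The group means were 347 ± 47.4 and 453 ± 37.3 CPM (SD, n = 4 each), and the log2 fold change was 0.38 (SE 0.12, 95% interval 0.13 to 0.63, edgeR adjusted p = 0.0166). The call was lost without WT replicate 2 (log2 fold change 0.27, edgeR adjusted p = 0.0632), without Cxcr2-/- replicate 3 (0.32, edgeR adjusted p = 0.0664) and with upper-quartile normalization (0.26, edgeR adjusted p = 0.0767), which also moved the median of all genes to -0.11.

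Fcgr1 (chr3:96282909-96293969, minus strand), the high-affinity IgG receptor and a gene best known from monocytes and macrophages, was measured at 0.310, 0.844, 0.615 and 0.347 CPM in WT. In Cxcr2-/- it was measured at 1.26, 0.830, 2.24 and 2.72 CPM, from 30 to 112 counts per library against 12 to 42 in WT. The Cxcr2-/- libraries were higher except replicate 2, which lay just under WT replicate 2, so the groups overlapped. The log2 fold change was 1.72 with a standard error of 0.43 and a 95% interval from 0.80 to 2.65 (edgeR adjusted p = 0.00548).

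Cxcr2-/- replicates 3 and 4, where Fcgr1 was highest, were also apart in some monocyte genes and not in others. Ccr2, a chemokine receptor of classical monocytes, was measured at 6.83, 8.94, 9.06 and 4.34 CPM in WT. It reached 34.4 and 45.7 CPM in Cxcr2-/- replicates 3 and 4, against 7.48 and 8.85 CPM in replicates 1 and 2. Cx3cr1, another monocyte receptor gene, was measured at 14.5 and 11.7 CPM in replicates 3 and 4 and between 3.26 and 8.91 CPM in the other 6 libraries. Ly6c2, a surface protein of classical monocytes, did not set them apart, at 663, 634, 639 and 573 CPM in Cxcr2-/- replicates 1 to 4 and 194 to 270.0 CPM in WT. Csf1r and Adgre1, the genes of the M-CSF receptor and F4/80, were below every WT library in all 4 Cxcr2-/- libraries, at 190 to 269 against 403 to 499 CPM and at 9.60 to 16.3 against 26.6 to 36.5 CPM. Of the whole list of 12 monocyte and macrophage markers, 3 were higher and 2 lower in Cxcr2-/- and none was under the floor of 3 counts in every library. Without both replicates 3 and 4, a choice made after the data were seen, the log2 fold change of Fcgr1 was 0.96 (edgeR adjusted p = 0.101), and that of Fcer1g was 0.33 (edgeR adjusted p = 0.0799). With the mean log2 (CPM + 1) of the whole list as a covariate, the log2 fold change of Fcgr1 was 1.83 (edgeR adjusted p = 0.000172). A covariate over the whole list cannot weigh single genes, and the part of these marker genes in the Fcgr1 result was not tested.

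**Figure D2:**
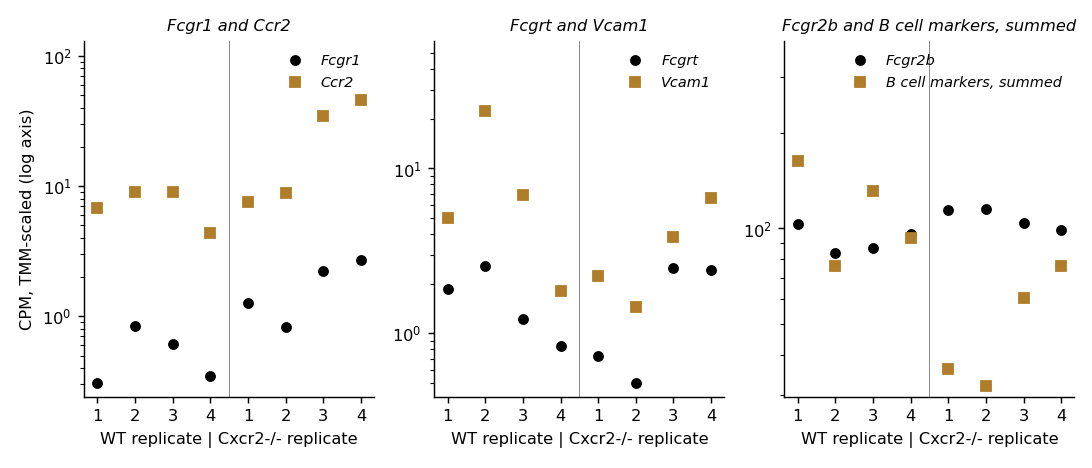
CPM on log axes in the 8 libraries, numbered by replicate with WT left and Cxcr2-/- right of the line, for Fcgr1 with the monocyte gene Ccr2, Fcgrt with the macrophage gene Vcam1, and Fcgr2b with the sum of 9 B cell markers, pairings picked after their values were seen. Ccr2 and Fcgr1 are both highest in Cxcr2-/- replicates 3 and 4, and the B cell sum lies between 32 and 76.1 CPM in Cxcr2-/- and between 76.1 and 163 CPM in WT while Fcgr2b lies between 83.8 and 116 CPM over both.

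The promoters of the genes that changed are shown because they are the regulatory sequence next to the start of each gene. They are the 250 bases before the RefSeq start on GRCm38.p6, both on the minus strand, at chr3:96293970-96294219 for Fcgr1 and chr1:171234350-171234599 for Fcer1g. Capitals mark matches to GAGGAA, a core bound by the myeloid factor PU.1, and to TTCNNNGAA, the core of the interferon γ-activated site, each searched on both strands.
Fcgr1 promoter: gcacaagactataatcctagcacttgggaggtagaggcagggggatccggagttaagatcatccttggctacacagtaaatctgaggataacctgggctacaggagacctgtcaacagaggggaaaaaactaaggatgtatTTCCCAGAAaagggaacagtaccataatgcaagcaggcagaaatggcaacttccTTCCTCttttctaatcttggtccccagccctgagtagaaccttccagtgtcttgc
Fcer1g promoter: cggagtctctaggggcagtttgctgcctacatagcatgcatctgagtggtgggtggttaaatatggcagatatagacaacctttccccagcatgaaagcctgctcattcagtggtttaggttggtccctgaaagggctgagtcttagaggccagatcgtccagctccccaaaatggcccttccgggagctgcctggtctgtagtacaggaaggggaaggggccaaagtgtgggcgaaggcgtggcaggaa
The search window ran from 250 bases before to 50 bases after the start. GAGGAA was found in the windows of Fcgr1, Fcgr3 and Fcgr4, and in 28.3% of 32851 promoter windows. TTCNNNGAA was found in the window of Fcgr1 alone among the 6 genes, and in 8.3% of all windows. The matches in Fcgr1 do not overlap each other, and a match describes letters and not a bound site.

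Fcgr3 (chr1:171051174-171064935, minus strand), the low-affinity activating receptor, was the most abundant α chain. It was measured at 509, 384, 454 and 457 CPM in WT, and at 461, 461, 461 and 428 CPM in Cxcr2-/-. The Cxcr2-/- values all lay inside the WT range. The means were 451 ± 51.3 CPM and 453 ± 16.3 CPM (SD, n = 4 each). The log2 fold change was 0.00 with a 95% interval from -0.22 to 0.23 (edgeR adjusted p = 0.975). With TMM scaling, changes outside 0.860- to 1.17-fold lie beyond the interval. With upper-quartile scaling the log2 fold change was -0.11 (SE 0.10), so the bound depends on the scaling. Its sign turned under other scalings, and no direction is given.

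Fcgr4 (chr1:171018920-171029761, plus strand), an activating receptor of neutrophils and monocytes, was measured at 92.6, 64.1, 86.9 and 82.7 CPM in WT. It was measured at 91.1, 88.4, 101.0 and 90.7 CPM in Cxcr2-/-. The groups overlapped, since WT replicate 1 lay above 3 Cxcr2-/- libraries. The log2 fold change was 0.19 with a standard error of 0.11 and a 95% interval from -0.06 to 0.43 (edgeR adjusted p = 0.198). An intron of Fcgr4 holds the snRNA gene Gm26110, which took 38 to 203 counts per library and shares no exon bases with it.

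Fcgr2b (chr1:170958617-170976547, minus strand), the inhibitory receptor, was measured at 103, 83.8, 86.9 and 95.7 CPM in WT. It was measured at 114, 116, 104 and 98.8 CPM in Cxcr2-/-. Only Cxcr2-/- replicate 4 lay within the WT range. The log2 fold change was 0.23 with a standard error of 0.10 and a 95% interval from 0.02 to 0.43, and did not pass (edgeR adjusted p = 0.0681). Without WT replicate 1 it passed, at 0.29 (edgeR adjusted p = 0.0373). Fcgr2b is the IgG Fc receptor of B cells, and 7 of 9 B cell markers were lower in Cxcr2-/- with 0 higher. With the mean log2 (CPM + 1) of these markers as a covariate, the log2 fold change of Fcgr2b was 0.20 (edgeR adjusted p = 0.349). The part of B cell RNA in the Fcgr2b values was not tested. The antisense gene Gm38204 shares 155 exon bases with Fcgr2b and took 8 to 24 counts per library, against 3253 to 4660 for Fcgr2b.

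Fcgrt (chr7:45092990-45103851, minus strand), the neonatal receptor heavy chain, was measured at 1.86, 2.55, 1.23 and 0.839 CPM in WT. It was measured at 0.733, 0.498, 2.49 and 2.43 CPM in Cxcr2-/-, from 18 to 127 counts per library over both groups. The Cxcr2-/- libraries fell into a low pair below the WT range and a high pair within it, the same replicates 3 and 4 that were high in Ccr2. The log2 fold change was -0.08 with a 95% interval from -1.14 to 0.98 (edgeR adjusted p = 0.906). Without that high pair it was -1.41 (edgeR adjusted p = 0.0205), so the call rests on which libraries enter. In WT the highest Fcgrt value came from replicate 2, which also had the highest Vcam1 and C1qa, genes of splenic macrophages, at 22.2 and 5.79 CPM against 1.79 to 6.90 and 0.0578 to 1.58 CPM in the other WT libraries. With the monocyte and macrophage list as a covariate, the log2 fold change of Fcgrt over all 8 libraries was -0.07 (edgeR adjusted p = 0.861). The part of macrophage RNA in these values was not tested. The partner of Fcgrt, the light chain B2m, had a log2 fold change of -0.36 and did not pass (edgeR adjusted p = 0.065).

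**Figure D3:**
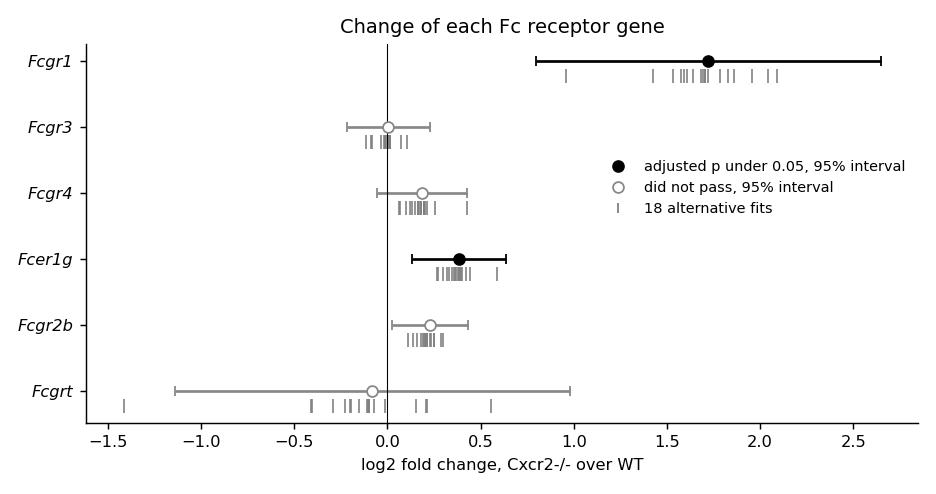
Log2 fold change of Cxcr2-/- over WT for the 6 genes, with the edgeR estimate and its 95% interval, filled where the adjusted p is under 0.05, and with grey ticks for 18 alternative fits. The intervals of Fcgr1 and Fcer1g lie above 0, that of Fcgr3 is centred on 0 and that of Fcgrt runs from -1.14 to 0.98.

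Fcgr2b and Fcgr3 are near copies over part of their coding region, which bears on how reads can be assigned to either. Both stretches are on the minus strand of GRCm38, Fcgr2b at chr1:170967980-170968093 and chr1:170966662-170966700, Fcgr3 at chr1:171057691-171057804 and chr1:171054155-171054193, each joined across an intron. Capitals mark the bases that differ.
Fcgr2b: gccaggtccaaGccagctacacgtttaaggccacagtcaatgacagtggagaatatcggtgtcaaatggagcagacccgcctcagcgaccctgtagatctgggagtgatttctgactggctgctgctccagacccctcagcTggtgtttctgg
Fcgr3: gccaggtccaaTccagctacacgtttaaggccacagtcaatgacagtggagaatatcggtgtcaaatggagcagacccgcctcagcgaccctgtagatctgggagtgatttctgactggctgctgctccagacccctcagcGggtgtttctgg
The identical run was 129 bases long, and the coding sequences were 86.7% identical over 782 aligned bases. Every other pair of IgG receptor chains had 64.1 to 68.6% identity and shared at most 14 bases in a row. A read that lies wholly inside the identical run matches both genes, unless its mate lies outside the run. Pairs without a unique alignment had their own summary line, at 8.23 to 13.3% of all pairs per library. Which of them came from these genes was not tested. Windows of 120 bases wholly inside the run made up 10 of 1228 in Fcgr3 and 10 of 3425 in Fcgr2b.

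The balance of activating to inhibitory receptors was compared as ratios of counts within each library, which no library scaling can change. The ratio of Fcgr3 to Fcgr2b was 4.94, 4.59, 5.22 and 4.77 in WT and 4.03, 3.99, 4.42 and 4.34 in Cxcr2-/-. Every Cxcr2-/- library was below every WT library, and the mean log2 ratio was lower by a difference of -0.22, a ratio of 0.859. In an exact permutation test, two-sided, this gave p = 0.0286, the smallest that 4 mice against 4 allow. It did not pass when adjusted over the 4 ratios tested (exact permutation, Benjamini-Hochberg p = 0.114). A ratio that alone reaches the smallest possible p cannot pass this adjustment. The log2 difference for Fcgr1 to Fcgr2b was 1.45, with overlapping groups (exact permutation p = 0.0571, adjusted 0.114). For Fcgr4 to Fcgr2b it was -0.03 (exact permutation p = 0.8, adjusted 0.8) and for Fcer1g to Fcgr2b 0.16 (exact permutation p = 0.2, adjusted 0.267). The 3 α chains summed per kb of exon stood to Fcgr2b as 20.6, 18.8, 22 and 19.9 in WT and as 17.1, 16.8, 19.3 and 18.8 in Cxcr2-/-, with overlapping groups, and are given without a test.

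The γ chain was also set against the abundant α chains, Fcgr3 and Fcgr4. The ratio of Fcer1g to Fcgr3 counts was 0.730 to 0.823 in WT and 0.921 to 1.09 in Cxcr2-/-. The ratio of Fcer1g to Fcgr4 counts was 4.18 to 4.38 in WT and 4.68 to 5.04 in Cxcr2-/-. Neither ratio overlapped between the groups. Both ratios were picked after their values were seen and are given without a test.

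**Figure D4:**
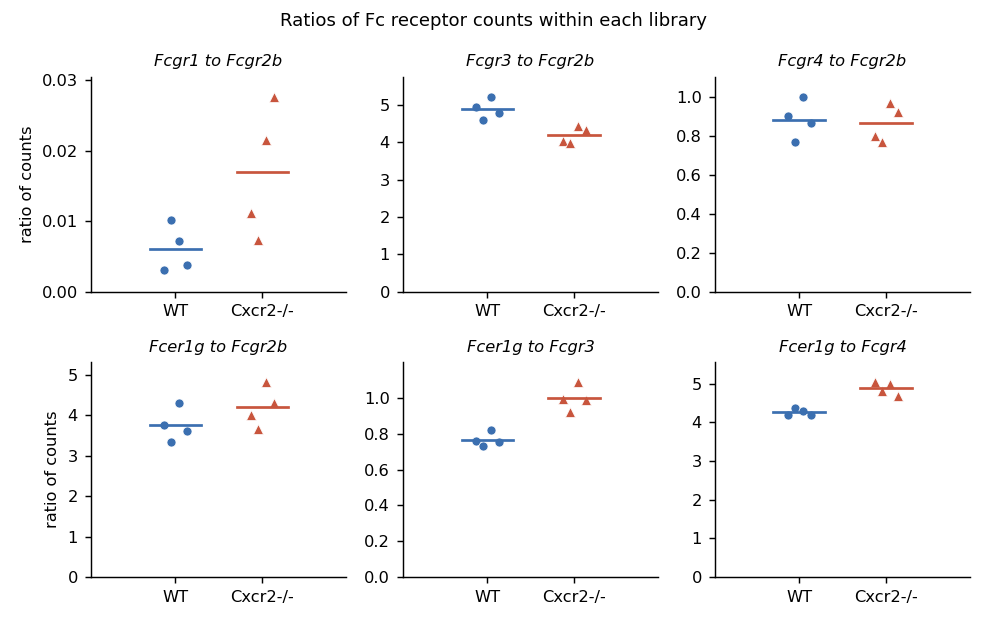
Ratios of counts within each library from 0 upwards, 1 point per mouse with a line at the group mean, circles for 4 WT and triangles for 4 Cxcr2-/-. Fcgr3 to Fcgr2b is lower in all 4 Cxcr2-/- libraries, Fcer1g to Fcgr3 and to Fcgr4 are higher in all 4, and the other 3 ratios overlap.

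Among themselves, Fcgr3, Fcgr4 and Fcer1g deviated together within groups. Over the 8 libraries, Pearson's r of the deviations of log2 (CPM + 1) from the group means was 0.97 for Fcgr4 with Fcer1g, 0.89 for Fcgr3 with Fcgr4 and 0.86 for Fcgr3 with Fcer1g. For Fcgr2b it was 0.80 with Fcgr3, 0.46 with Fcgr4 and 0.44 with Fcer1g. It was 0.87 for the low genes Fcgr1 with Fcgrt and -0.88 for Fcgr1 with Fcgr2b. These values share library preparation and scaling and are descriptions. WT replicate 2 was the lowest WT library for Fcgr3, Fcgr4, Fcer1g and Fcgr2b. Fcer1g, Fcgr3, Fcgr4 and Fcgr2b lie 96.8 to 97.1 Mb from Cxcr2 on the same chromosome.

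The protein-coding genes whose log2 (CPM + 1) was most like each receptor over the 8 libraries were taken from 4084 genes with a mean log2 CPM of at least 5. For Fcer1g they were Spg21, Atp6v1g1 and Aurkaip1, with r from 0.977 to 0.979. For Fcgr1 they were Fn1, Sf3b3 and Rack1 (r 0.956, 0.948 and 0.940), and for Fcgr3 Gmfg, Tmem234 and Gabarap (r 0.973, 0.955 and 0.928). For Fcgr4 they were Txn1, Hsbp1 and Cib1 (r 0.989, 0.982 and 0.948), for Fcgr2b Mxi1, Sept9 and Dnajc14 (r 0.987, 0.984 and 0.982) and for Fcgrt M6pr, Ahnak and Pld4 (r 0.914, 0.901 and 0.884). Fn1, fibronectin, rose with Fcgr1 from 24.0 ± 6.51 to 82.6 ± 61.8 CPM (SD, n = 4 each, edgeR adjusted p = 0.00831).

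Downstream of the ITAM, kinases and adaptors moved in both directions. Of 22 genes, all tested, 2 were higher, 7 lower and 13 did not pass, with a median log2 fold change of -0.01, against the background of 44.7% called and a median of 0.01 over all genes tested. Rac2, a small GTPase of blood cells that drives the granulocyte oxidase, rose from 1210 ± 168 to 1892 ± 257 CPM (SD, n = 4 each, edgeR adjusted p = 0.002). The adaptor Gab2 fell from 166 ± 14.4 to 82.4 ± 9.01 CPM, a log2 fold change of -1.01 (edgeR adjusted p = 9.01e-06). Tec, a kinase, fell by 0.73, Fyb, an adaptor, by 0.71 and Pik3cd, a PI3-kinase catalytic subunit, by 0.53 on the log2 scale. Syk, the kinase that docks on the ITAM, was among the other genes that fell, by 0.32 on the log2 scale (edgeR adjusted p = 0.0185). The log2 fold changes of Fgr and Cdc42, which did not pass, were 0.01 and 0.13.

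Genes that act downstream of Fcgr2b or restrain Src-family kinases were called about as often as all genes. Of 9 tested, 2 were higher, 2 lower and 5 did not pass, against the background of 44.7% called, with a median log2 fold change of -0.03. Dok2, an adaptor that dampens tyrosine kinase signals, rose from 21.2 ± 2.49 to 46.1 ± 6.26 CPM (edgeR adjusted p = 1.14e-05), and the phosphatase Ptpn11 rose by 0.66 on the log2 scale. Inpp5d, the inositol phosphatase recruited by the ITIM, fell from 468 ± 21.1 to 352 ± 23.9 CPM (edgeR adjusted p = 0.00295), and Csk, which inhibits Src-family kinases, fell by 0.33 on the log2 scale. Cbl and Ptpn6 had log2 fold changes of -0.03 and -0.18 and did not pass.

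Of 10 genes made up of other receptors that pair with Fcer1g and the related adaptor Tyrobp, 7 were tested. Of these 1 was higher, 2 lower and 4 did not pass, close to the background of 44.7% called, with a median log2 fold change of -0.17. Clec4d fell from 392 ± 29 to 151 ± 7.31 CPM, a log2 fold change of -1.38, and Clec4n, also a fungal C-type lectin receptor, from 70.1 ± 11.7 to 33.9 ± 13.1 CPM (SD, n = 4 each, edgeR adjusted p = 3.85e-07 and 0.00222). Tarm1 rose from 41.7 ± 6.64 to 65.6 ± 5.23 CPM (edgeR adjusted p = 0.000614). Tyrobp, at a log2 fold change of -0.17, and Clec4e, at -0.29, did not pass.

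Of 14 other immunoglobulin receptors and partners, 9 were tested, of which 2 were higher, 5 lower and 2 did not pass, against the background of 44.7% called, with a median log2 fold change of -0.85. Most of the genes that fell are known from B cells. Fcmr, the IgM receptor, was measured at 0.522 to 3.56 CPM in WT and 0.221 to 1.14 CPM in Cxcr2-/-, Fcrla at 0.764 to 2.49 and 0.332 to 1.12 CPM, and Fcer2a at 1.63 to 3.98 and 1.26 to 1.85 CPM. Fcamr, the receptor for IgA and IgM, was measured at 0.376 to 2.92 CPM in WT and at 0 to 0.203 CPM in Cxcr2-/-. The last of the 5, Fcrl1, named after its values were seen, fell from 43.1 ± 4.33 to 29.4 ± 1.13 CPM (SD, n = 4 each). Beside these values, B cell markers summed to 76.1 to 163 CPM in WT and 32 to 76.1 CPM in Cxcr2-/-, and their part in the result was not tested. Trim21, the cytosolic Fc receptor, rose from 11.2 ± 0.762 to 16.7 ± 4.22 CPM (edgeR adjusted p = 0.0109), and Ms4a2, a chain of the IgE receptor, was measured at 0.0402 to 0.265 CPM in WT and 0.267 to 0.553 CPM in Cxcr2-/-. Fcrl5 had a log2 fold change of -0.96 and did not pass.

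**Figure D5:**
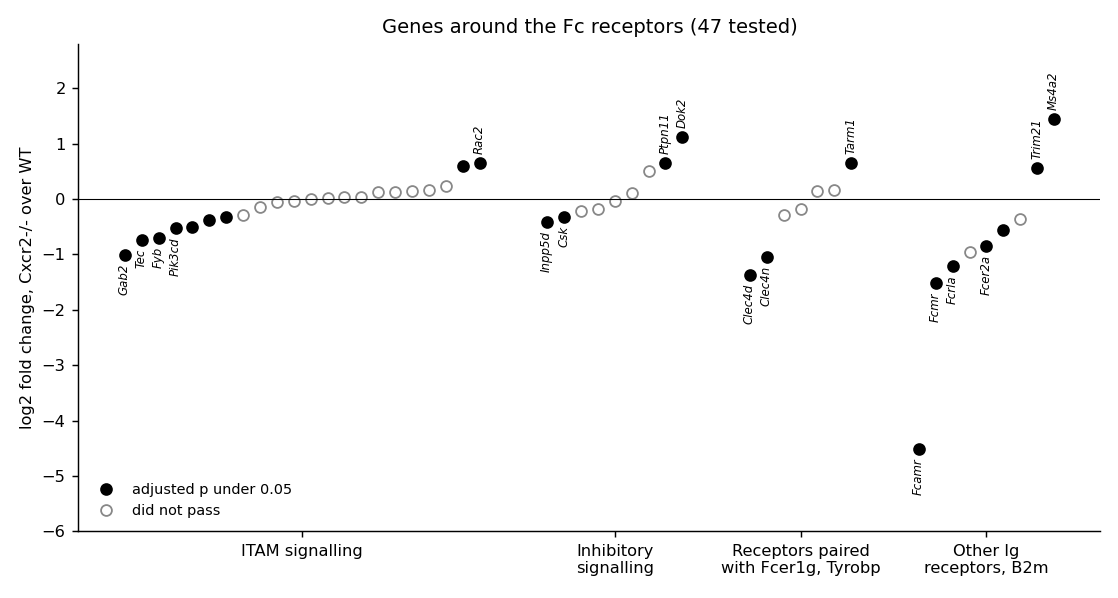
Log2 fold change of Cxcr2-/- over WT for the 47 tested genes of 4 lists around the Fc receptors, filled where the adjusted p is under 0.05. Of these genes 7 are higher, 16 lower and 24 did not pass. Over all genes tested, 44.7% were called, 23.7% higher and 21% lower. Each list has genes on both sides of 0.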

How the data were processed

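RNA of sorted spleen neutrophils from 4 WT and 4 Cxcr2-/- mice was rRNA-depleted by the authors, made into directional libraries, sequenced on a NovaSeq, aligned to mm10 with STAR and counted per gene with HTSeq, as the sources state. The deposited files hold raw counts per gene without normalization, and their 5 summary lines, 42.4 to 53.6% of all pairs, were left out of library sizes. The strand setting and the annotation of the counting are not given in the sources used here. The identifiers carried later versions than GENCODE M21 for most genes, so coordinates and lengths from M21 (GRCm38) may differ from the gene models counted. Of 55414 identifiers, 52133 had an M21 entry and 3281 had none (1.42% of counts). Symbols came from M21, and all 6 receptor genes matched.

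Counts were tested in R 4.3.3 with edgeR 4.0.16 (TMM, filterByExpr, quasi-likelihood F test, Benjamini-Hochberg adjustment, adjusted p under 0.05), which found a biological coefficient of variation of 0.202. Only the edgeR and DESeq2 group fits were run on simulated counts, with far fewer changed genes than were called here. Ratios, covariates and the replicate block were not simulated. DESeq2 1.42.0, other scalings, filters, covariates, a replicate block and fits without 1 library were alternatives. Ratios used counts plus 0.5 and an exact permutation test. Receptor genes and lists were chosen with earlier results of these data known. The text names the 6 receptors, of each list up to 4 called genes per direction with the largest changes and up to 2 abundant genes that did not pass, the 3 genes most like each receptor, and genes that overlap one. A gene that this rule names is not reported here. Syk and the marker genes named singly were added after their values were seen. A replicate number shared by a WT and a knockout library does not mark 1 animal. Every pair of libraries within a group differed beyond sampling noise (chi-square per gene 24.2 to 97.6). The mice are separate animals of 1 series, and p-values set the difference between the groups against the spread between mice within them.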

Additional observations from a re-analysis of the deposited data

Results flagged for a closer look

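Fcgr3 in the Cxcr2-/- group had 1 library away from the other three. Replicate 4 was at 428 CPM and the others were all at 461 CPM, so the gap to the nearest value was 0.992 of the whole range of the group. The range is narrow, with an SD of 16.3 CPM against 51.3 CPM in WT. Chance flags about 1 in 20 groups, and 24 groups of values were checked.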

How the results depend on the processing

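The higher levels of Fcgr1 and Fcer1g kept their direction under every alternative fit run. The Fcer1g call was lost with upper-quartile normalization (log2 fold change 0.26). It was also lost without both Cxcr2-/- replicates 3 and 4 (0.33), a choice made after the data were seen. Leaving out 1 library gave 0.27 to 0.44, and the call was lost without WT replicate 2 and without Cxcr2-/- replicate 3. With a B cell covariate the Fcer1g log2 fold change was 0.59, still called. Fcgr4 did not pass under any alternative and ranged from 0.06 without WT replicate 2 to 0.42 with a B cell covariate (edgeR adjusted p = 0.051). Fcgr1 ranged from 1.42 to 2.04 without 1 library and was 0.96, not called, without both replicates. Fcgr3 turned sign with DESeq2 (-0.0156), DESeq2 size factors in edgeR (-0.0191), upper-quartile (-0.1147) and total-count scaling (-0.0822), no filter (-0.0114), a minimum of 10 counts in every library (-0.033) and a macrophage covariate (-0.0041), and ranged from -0.0884 to 0.071 without 1 library. Fcgrt was 0.56 with a B cell covariate, -0.41 to 0.21 without 1 library, and -1.41, called, without both replicates. Fcgr2b ranged from 0.16 to 0.29 without 1 library. The Fcgr3 to Fcgr2b log2 ratio ranged from -0.25 to -0.19 without 1 library, where the exact permutation p of 0.0571 is the smallest possible, and Fcgr4 to Fcgr2b from -0.0992 to 0.0295. Where no cause follows from fewer libraries, the cause was not tested. Calls over all genes were 3969 higher and 3526 lower, against 3076 and 4391 with upper-quartile and 3248 and 4080 with total-count scaling; with the B cell covariate 2298 were lower. Without 1 library, 3426 to 3774 genes were called higher and 3062 to 3520 lower.

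Replicate numbers did not pair the mice: deviations of same-numbered mice correlated at 0.150, -0.187, 0.245 and -0.308. With the replicate block the Fcgr3 to Fcgr2b ratio was -0.22 (exact permutation p = 0.125, the smallest that 4 pairs allow), Fcgr1 was 1.68 and Fcer1g 0.39, both called, the calls of the other 4 genes did not change, and 3719 genes were higher and 3349 lower. Depth limits Fcgr1 and Fcgrt, with as few as 12 and 18 counts in a library.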
